A study of Homo sapiens with 10 samples.

Results

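AP-1 is a dimeric transcription factor made of a JUN-family protein (JUN, JUNB, JUND) and a second protein, often of the FOS family (FOS, FOSL1, FOSL2). JUN, JUNB, FOS, EGR1, IER2, IER3 and ZFP36 are immediate-early genes, whose transcripts rise soon after growth factor, stress or cytokine signals without new protein synthesis, while JUND is less dependent on stimulation and FOSL1 and FOSL2 are usually induced later. In the deposited RNA-seq table all 10 of these genes, matched by their symbols, had a row among 13527 features, and each was at 1 CPM (counts scaled to the library total) or more in all 6 libraries. In epithelial tumour cells AP-1 is known for roles in growth, invasion and inflammatory gene expression, and its subunits differ in how strongly they activate transcription.

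The series examines SOX4, an HMG-box transcription factor, in DU145, an established human prostate cancer line. The 6 RNA-seq libraries came from DU145 cells cultured without further treatment, 3 with a scrambled control hairpin (shCon, genotype Scramble) and 3 with SOX4 knockdown by a short hairpin (shSOX4). How many hairpin sequences or clones stand behind the knockdown line is not stated, and the labels are silent on whether the 3 libraries of each group are separate cultures. The 4 ATAC-seq libraries, of DU145 with SOX4 overexpression (oeSOX4) or an empty vector (Vector), were not analysed here. Sequencing depth was 31189910 to 43361609 counts per library. SOX4 itself was at 12.9, 10.1 and 8.48 CPM in shCon 1, 2 and 3 and at 4.55, 6.44 and 6.01 CPM in shSOX4 1, 2 and 3, with no overlap (log2 fold change -0.89, adjusted p = 0.0111, edgeR; -0.71 and adjusted p = 0.0598 without shCon 1). All 6 epithelial markers checked had a row, and their summed level was 4474 to 7179 CPM in shCon and 8887 to 10113 CPM in shSOX4. Of 6 leukocyte markers CD68 and CD14 had a row, of 4 endothelial markers CDH5, and of 6 fibroblast markers PDGFRB, COL1A1 and LUM. In shCon and then shSOX4 the summed levels were 97.4 to 116 and 46.3 to 56.5 CPM for leukocyte markers, 0.525 to 0.942 and 4.70 to 6.62 for endothelial markers, and 1.69 to 2.48 and 9.55 to 16 for fibroblast markers, and their part in the results was not tested. The deposited features had at least 1 CPM in at least 3 libraries, and CDH5 was under 1 CPM in every shCon library. Its row was kept only through shSOX4, so its higher level there was fixed by that filter. The fibroblast genes, also low in shCon, were under the same selection. Libraries shCon 3 and shSOX4 1 stood apart from the other 4 on the second principal component of log2 CPM, which held 16.4% of the variance.

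Immediate-early promoters carry short elements through which signals reach the gene, and the promoters of JUN, JUND, FOS and EGR1 are printed. JUN and JUND were lower in shSOX4 at the threshold given below, and FOS and EGR1 did not pass it. Whether the changes of these genes differ, and any tie to their promoters, was not tested. RefSeq promoter windows of GRCh38.p14 matched 8 of the 10 genes (JUN, JUNB, JUND, FOS, FOSL2, EGR1, IER2 and ZFP36). Each line gives the 250 bases before the annotated start, 5′ to 3′ on the gene's strand, and capitals mark the motif matches described next.
JUN, chr1:58784048-58784297, minus strand: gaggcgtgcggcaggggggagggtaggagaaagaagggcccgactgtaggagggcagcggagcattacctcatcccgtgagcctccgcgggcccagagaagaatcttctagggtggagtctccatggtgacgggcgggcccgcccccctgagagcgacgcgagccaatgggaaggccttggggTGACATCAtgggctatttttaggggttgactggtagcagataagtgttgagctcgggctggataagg
JUND, chr19:18281623-18281872, minus strand: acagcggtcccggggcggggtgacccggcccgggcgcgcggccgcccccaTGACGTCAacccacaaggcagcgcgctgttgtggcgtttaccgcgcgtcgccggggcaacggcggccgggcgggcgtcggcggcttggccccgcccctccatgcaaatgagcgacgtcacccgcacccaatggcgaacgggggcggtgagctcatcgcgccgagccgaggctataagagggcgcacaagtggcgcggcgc
FOS, chr14:75278578-75278827, plus strand: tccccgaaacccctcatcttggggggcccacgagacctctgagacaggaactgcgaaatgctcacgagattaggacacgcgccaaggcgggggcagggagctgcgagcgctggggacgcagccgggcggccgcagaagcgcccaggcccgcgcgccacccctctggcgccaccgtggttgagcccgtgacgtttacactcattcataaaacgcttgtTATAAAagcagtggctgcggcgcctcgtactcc
EGR1, chr5:138465229-138465478, plus strand: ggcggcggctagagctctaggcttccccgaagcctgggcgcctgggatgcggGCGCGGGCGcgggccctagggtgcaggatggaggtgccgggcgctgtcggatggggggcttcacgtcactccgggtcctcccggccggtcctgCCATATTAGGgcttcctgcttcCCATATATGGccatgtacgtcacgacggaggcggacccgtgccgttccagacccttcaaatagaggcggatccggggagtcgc

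Motifs were searched on both strands of the 300-base windows, from 250 bases before to 50 bases after the start. The AP-1 site TGANTCA, present in 7.71% of 35116 windows, was found in FOSL2 alone of the 8, beginning 5 bases into the transcript. The cyclic AMP response element TGACGTCA (1.85% of windows) was found in JUND, from 200 to 193 bases before the start. The looser form TGACNTCA, which contains that element and was added after seeing the sequences (7.72% of windows), also matched JUN 67 to 60 bases before the start, the place of the element through which AP-1 is known to act on the JUN gene. It matched ZFP36 as well, from base 5 to base 12 of the transcript. The CArG box bound by serum response factor (1.29% of windows) was found in EGR1 only, at 2 places, 105 to 96 and 83 to 74 bases before the start, and EGR1 also held the EGR site GCGNGGGCG (9.43% of windows) 198 to 190 bases before it. The TATA motif TATAAA, also added afterwards (11.5% of windows), lay 33 to 28 bases before the start of FOS and 31 to 26 before that of JUNB. IER2 held none of these motifs. These are matches of letters within the windows, and binding was not measured. Sites farther from the start were not searched, so a motif not found here, in FOS or another gene, may lie outside the window.

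Of the 10 genes, 6 fell in shSOX4 cells and none rose. ZFP36, IER3 and JUN fell most, to 39.9%, 44.8% and 58.3% of their shCon level, and the falls of JUND, FOSL2 and FOSL1, to between 65.2% and 74.1%, were smaller. IER2, EGR1 and JUNB had lower means without passing the test, and FOS was the only member with a higher mean. Across all features 32.8% were called at an adjusted p under 0.05 by edgeR's quasi-likelihood test (Benjamini-Hochberg), 15.8% down and 17.0% up, so the 6 of 10 down stand against a background of 15.8%. In bulk RNA, fewer cells expressing a gene and less RNA per cell cannot be told apart. The members' median log2 fold change was -0.45, against -0.01 over all features. Every shSOX4 library was below every shCon library for 5 members, which holds for 23.9% of all features. The authors' deposited table has the same 6 members below an adjusted p of 0.05, but it rests on the same libraries and is not independent. Of these 6, only JUN, IER3 and ZFP36 were called whichever library was left out.

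**Figure D1:**
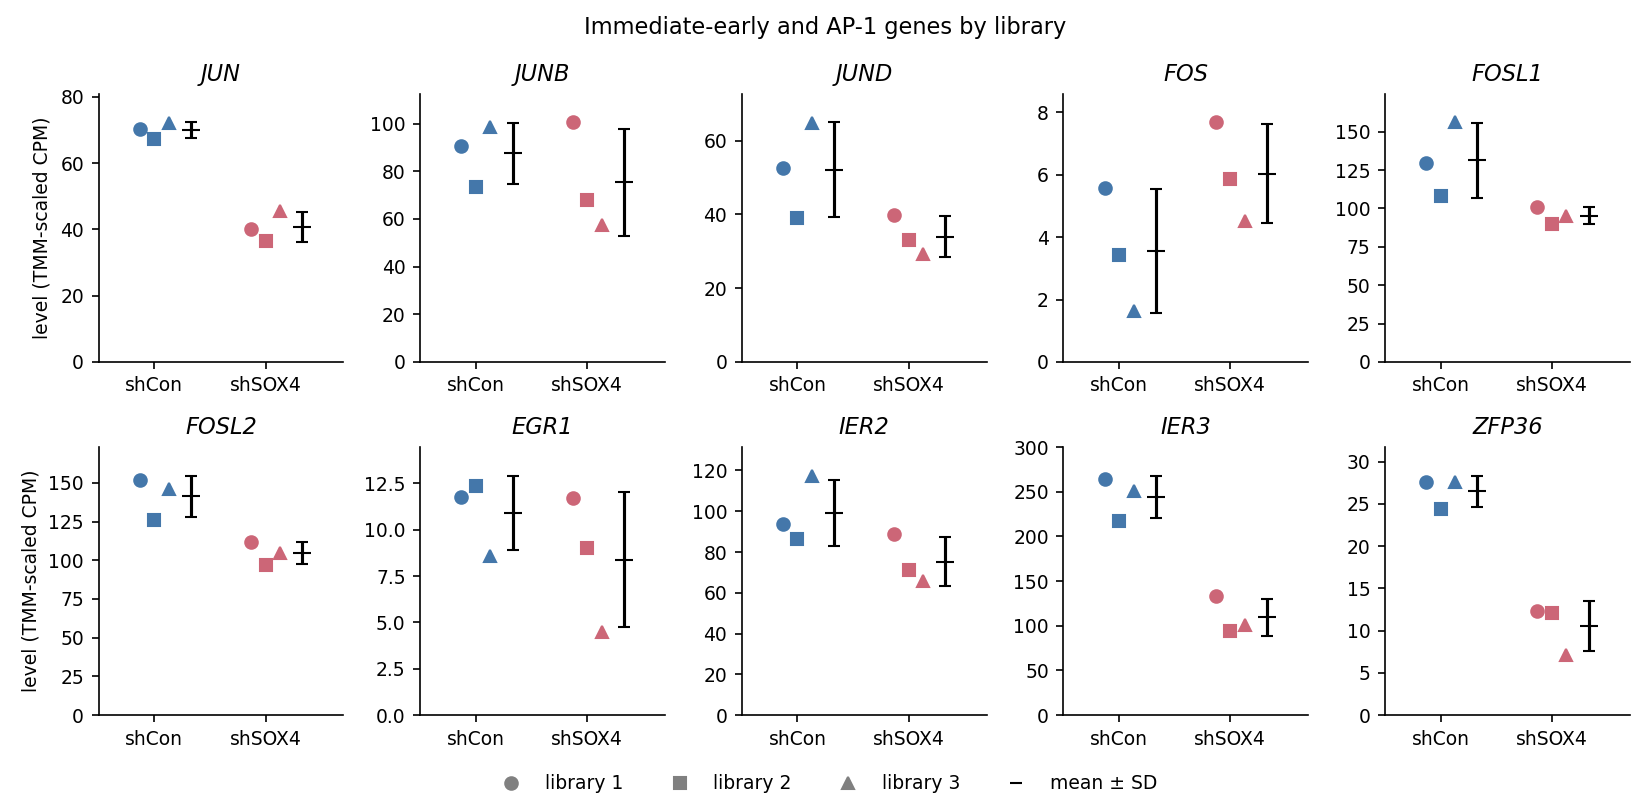
Level of each of the 10 genes in each library, as TMM-scaled CPM on a linear axis from 0, with shCon in blue, shSOX4 in red, a marker shape for each library number and black bars for mean ± SD (n = 3). JUN, FOSL1, FOSL2, IER3 and ZFP36 show no overlap between the groups, while JUNB, JUND, FOS, EGR1 and IER2 overlap.

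JUN, the prototype subunit, which can form dimers with itself or with FOS proteins, was at 70.4, 67.4 and 72.1 CPM in shCon 1, 2 and 3 and at 40.2, 36.6 and 45.6 CPM in shSOX4 1, 2 and 3. All shSOX4 libraries lay well below all shCon libraries. Its mean was 69.9 ± 2.38 CPM in shCon and 40.8 ± 4.55 CPM in shSOX4 (SD, n = 3 each), and the log2 fold change was -0.78 (SE 0.168, 95% interval -1.14 to -0.42, adjusted p = 0.00359, edgeR). The call held whichever library was left out, with values from -0.86 to -0.71. Against a null of a 1.5-fold change it did not pass (adjusted p = 0.249, edgeR glmTreat). Spread of JUN within groups was small: its pooled SD of log2 CPM was 0.117, which only 8.13% of features went below. Features were not matched by level in that ranking, and JUN had 1181 to 3213 counts per library.

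JUND was at 52.6, 39.0 and 64.8 CPM in shCon and at 39.9, 33 and 29.1 CPM in shSOX4. The groups met, since shCon 2 lay just below shSOX4 1. The change was -0.62 on the log2 scale (SE 0.21, 95% interval -1.07 to -0.17, adjusted p = 0.0369, edgeR). Leaving out shCon 1 ended the call (-0.61, adjusted p = 0.0742), as did leaving out shCon 3 (-0.43, 0.109), shSOX4 2 (-0.59, 0.119) or shSOX4 3 (-0.51, 0.139).

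JUNB, which activates many promoters more weakly than JUN, was at 90.6, 73.5 and 98.5 CPM in shCon and at 101, 67.8 and 57.6 CPM in shSOX4. Its highest value was in shSOX4 1 and its lowest in shSOX4 3, so the spread within shSOX4 covered the whole shCon range. The log2 fold change was -0.22 (SE 0.209, 95% interval -0.66 to 0.23, adjusted p = 0.448, edgeR). It was -0.47 without shSOX4 1 (adjusted p = 0.0676), -0.12 without shCon 3 (0.693) and -0.05 without shSOX4 3 (0.891, edgeR), and it passed only with shCon 3 and shSOX4 1 both left out (-0.39, adjusted p = 0.0497). In RefSeq's annotation JUNB overlaps HOOK2, a microtubule adaptor gene with its own row (log2 fold change -0.91, adjusted p = 0.0044 by edgeR), FOSL2 overlaps FOSL2-AS1 and IER3 overlaps IER3-AS1. The strand setting of the counting is not given, so reads of such partners cannot be told apart.

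FOSL1 and FOSL2 (the FRA-1 and FRA-2 proteins) lack the strong activation domain of FOS, and FOSL1 is itself a target of AP-1. FOSL1 was at 130, 108 and 156 CPM in shCon and at 101, 89.8 and 95 CPM in shSOX4. The groups did not overlap, although shCon 2 came close to shSOX4 1. Its log2 fold change was -0.46 (SE 0.171, 95% interval -0.83 to -0.10) with an adjusted p of 0.0499 (edgeR), at the edge of the threshold. It no longer passed without shCon 1 (adjusted p = 0.0888), shCon 3 (0.142, value -0.32), shSOX4 1 (0.0511), shSOX4 2 (0.185) or shSOX4 3 (0.115), all by edgeR. FOSL2 was at 152, 126 and 146 CPM in shCon and at 112, 97.2 and 105 CPM in shSOX4, also without overlap. Its log2 fold change of -0.43 (SE 0.156, 95% interval -0.77 to -0.10, adjusted p = 0.0451, edgeR) was lost with any library left out (adjusted p from 0.0525 without shSOX4 1 to 0.199 without shSOX4 2), while the value stayed between -0.51 and -0.38. Its spread within groups was small, with a pooled SD of 0.122 on the log2 scale.

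FOS had the lowest mean of the 10 per length in shCon (in shSOX4 that was EGR1, at 2.5 FPKM against 3.05 for FOS), and its log2 fold change was the only positive value. It was at 5.59, 3.44 and 1.63 CPM in shCon and at 7.69, 5.88 and 4.52 CPM in shSOX4, from 56 to 262 counts per library. The groups overlapped, with shCon 1 above shSOX4 3 and shCon 3 far below all other libraries. The mean was 3.55 ± 1.98 CPM in shCon and 6.03 ± 1.59 CPM in shSOX4 (SD, n = 3 each), and the log2 fold change was 0.75 (SE 0.364, 95% interval -0.02 to 1.53, adjusted p = 0.124, edgeR). Without shCon 1 it was 1.25 and passed (adjusted p = 0.0236), and without shCon 3 it was 0.42 (adjusted p = 0.322). With shCon 3 and shSOX4 1 both left out it was 0.20 (adjusted p = 0.608). Its pooled SD of 0.592 was above that of 98.4% of features. The authors' deposited table gives it 0.67 on the log2 scale, with an adjusted p of 0.0856.

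EGR1, a zinc-finger activator induced through serum response factor, also varied strongly within groups (pooled SD 0.511, above 96.9% of features). It was at 11.8, 12.4 and 8.60 CPM in shCon and at 11.7, 9.01 and 4.46 CPM in shSOX4. Only shSOX4 3 lay below all shCon libraries. The log2 fold change was -0.38 (SE 0.295, 95% interval -1.01 to 0.25, adjusted p = 0.340, edgeR), it ranged from -0.69 without shSOX4 1 to -0.07 without shSOX4 3, and it reached -0.84 without both shCon 3 and shSOX4 1, where it passed (adjusted p = 0.0176). IER2, a short nuclear protein induced early by growth factors, was at 93.9, 86.4 and 118 CPM in shCon and at 88.9, 71.0 and 66.0 CPM in shSOX4, where shSOX4 1 fell within the shCon range. Its log2 fold change of -0.40 (SE 0.181, 95% interval -0.79 to -0.01) did not pass after adjustment (adjusted p = 0.103, edgeR). Without shSOX4 1 it was -0.52 and passed (adjusted p = 0.0404), and leaving out shCon 3 and shSOX4 1 together also gave a call (-0.39, adjusted p = 0.029).

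IER3, a stress-induced regulator of survival and NF-kB signalling, was the most abundant of the 10 per length. It was at 264, 218 and 251 CPM in shCon and at 133, 93.7 and 101 CPM in shSOX4. Its highest shSOX4 value lay far below its lowest shCon value. Its mean was 244 ± 23.9 CPM in shCon and 109 ± 21.2 CPM in shSOX4 (SD, n = 3 each), and the log2 fold change was -1.16 (SE 0.175, 95% interval -1.53 to -0.79, adjusted p = 0.000279, edgeR), with values from -1.32 to -1.06 when a library was left out. ZFP36 encodes tristetraprolin, which binds AU-rich elements of cytokine and growth factor mRNAs and brings the machinery that removes their poly-A tails. It was at 27.6, 24.3 and 27.5 CPM in shCon and at 12.4, 12.1 and 7.17 CPM in shSOX4, again far apart. The log2 fold change was -1.33 (SE 0.225, 95% interval -1.81 to -0.85, adjusted p = 0.000687, edgeR), and leaving out a library gave -1.45 to -1.10. Both genes passed the test against a 1.5-fold change (adjusted p = 0.00994 for IER3 and 0.0102 for ZFP36, edgeR glmTreat), a test that 3.05% of all features passed downward, and they were the only 2 of the 10 to do so.

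**Figure D2:**
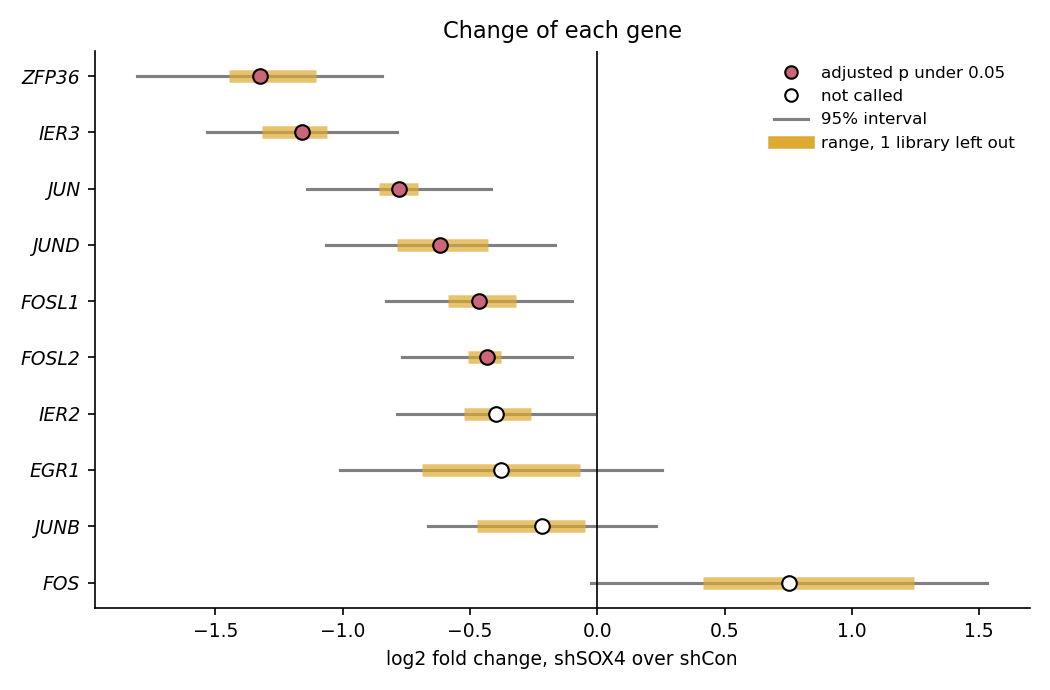
Log2 fold change of each gene, shSOX4 over shCon, as points (red where the adjusted p was under 0.05, white where not), with grey lines for the 95% interval and yellow bars for the range when 1 library was left out. The intervals and leave-one-out ranges of ZFP36, IER3, JUN, JUND, FOSL1, FOSL2 and IER2, which was not called, lie below 0. The intervals of EGR1, JUNB and FOS cross 0, and FOS is the only point to the right of it.

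The 10 genes also differed in spread. JUN and FOSL2 had pooled SDs near 0.12, while EGR1 and FOS were above 0.5, and the median over all features, not matched by level, was 0.245. Within shSOX4, library 1 was the highest for 9 of the 10 genes, JUN being the exception, and library 3 was the lowest for 6. Within shCon, library 3 was the highest for 5 genes, yet it was the lowest for FOS and EGR1. Without both shCon 3 and shSOX4 1, all of the 10 but FOS were called down, against 6 with all libraries. Of all 13527 features, 2642 were then called down against 2136, and 5532 in either direction against 4431. Leaving out a single library gave 3 to 5 members down, with 3 down without shCon 1, shCon 3, shSOX4 2 or shSOX4 3, and JUN, IER3 and ZFP36 were called in all 6 such fits. Of all features, these fits called 1098 (without shSOX4 2) to 2313 (without shSOX4 1) down.

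**Figure D3:**
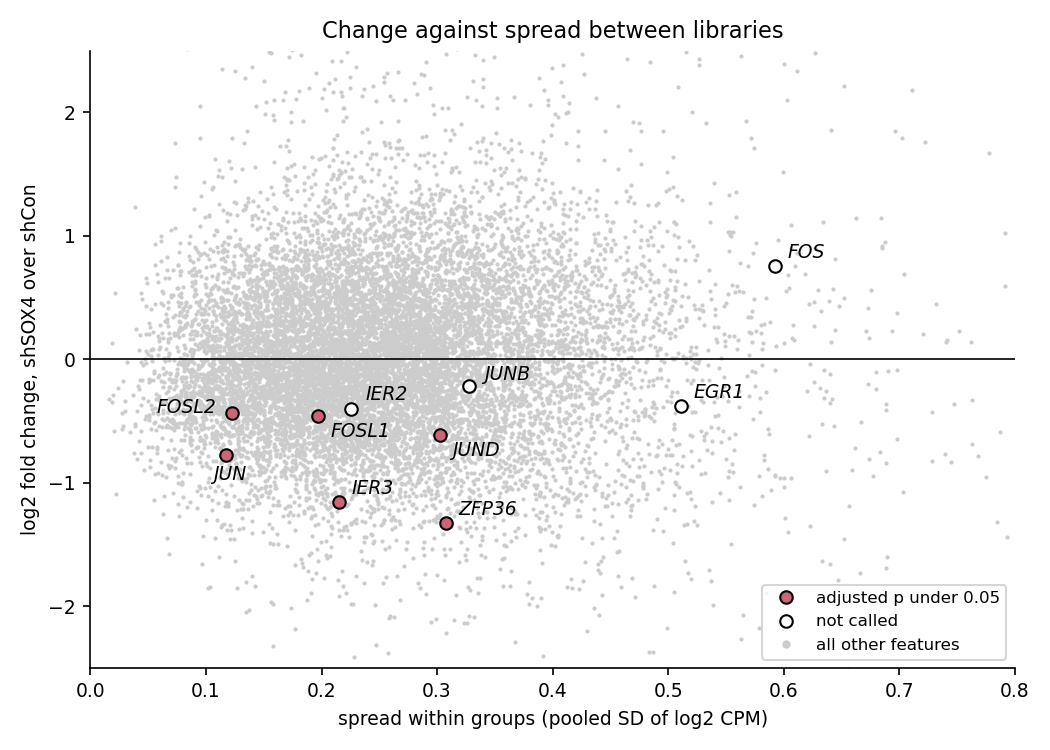
Log2 fold change (shSOX4 over shCon) against the pooled within-group SD of log2 CPM for the 10 genes (red if called, white if not) and all other features (grey), leaving 366 features outside the axes. FOS and EGR1 sit far to the right with pooled SDs of 0.592 and 0.511, and JUN and FOSL2 far to the left.

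On a per-length scale (FPKM, fragments scaled to gene length and library total) the order of levels in shCon was IER3 (176 ± 12.6), FOSL1 (77 ± 11.5), JUNB (44.6 ± 5.23), IER2 (32.1 ± 3.78), JUND (25.9 ± 5.20), FOSL2 (19.7 ± 2.08), JUN (18.4 ± 0.841), ZFP36 (13.9 ± 1.04), EGR1 (3.26 ± 0.768) and FOS (1.79 ± 1.04; SD, n = 3 each). The ranges over the 3 shCon libraries overlapped between IER2 and JUND, between JUND and FOSL2 and between FOSL2 and JUN, and not between other neighbours in this order except EGR1 and FOS. FOSL1 was the main FOS-family transcript and JUNB the main JUN-family transcript in these cells. Summed over JUN, JUNB and JUND, the level was 88.8 ± 10.4 FPKM in shCon and 66.5 ± 13.1 FPKM in shSOX4 (exact permutation test, two-sided p = 0.2, where 0.1 is the smallest p that 3 against 3 allows). Summed over FOS, FOSL1 and FOSL2 it was 98.4 ± 12.5 and 74.9 ± 4.46 FPKM (exact permutation p = 0.1). FOSB, the other FOS-family gene, had no row and is therefore not in these sums.

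The families were also described by the share of each gene in their summed FPKM. JUNB made up 50.9, 50.2 and 49.5% of JUN-family FPKM in shCon 1, 2 and 3 and 62.7, 57.1 and 52.6% in shSOX4, higher in every shSOX4 library, by 7.25 percentage points on average (4.62 without shSOX4 1). The share of JUN was 20.9 ± 2.56% in shCon and 16.7 ± 4.33% in shSOX4, and that of JUND 28.9 ± 2.86% and 25.8 ± 1.37%, with overlapping groups. FOS was 2.72, 2.05 and 0.745% of FOS-family FPKM in shCon and 4.86, 4.37 and 2.89% in shSOX4, again higher in every shSOX4 library. FOSL1 stayed the bulk, at 78.1 ± 3.0% and 76.4 ± 0.625%, and FOSL2 was at 20.1 ± 2.1% and 19.5 ± 0.430%. The differences for FOSL1 and FOSL2 were -1.63 and -0.57 points and changed sign without shCon 3 (0.0984 points) and without shCon 2 (0.185 points). Over the 6 shares the exact permutation p was 0.1 for JUNB and FOS, the smallest possible, and 0.2 to 0.7 for the others (0.3 to 0.7 after Benjamini-Hochberg adjustment). With 3 libraries a group no share could reach 0.05, so these p-values do not show that the shares stayed the same.

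**Figure D4:**
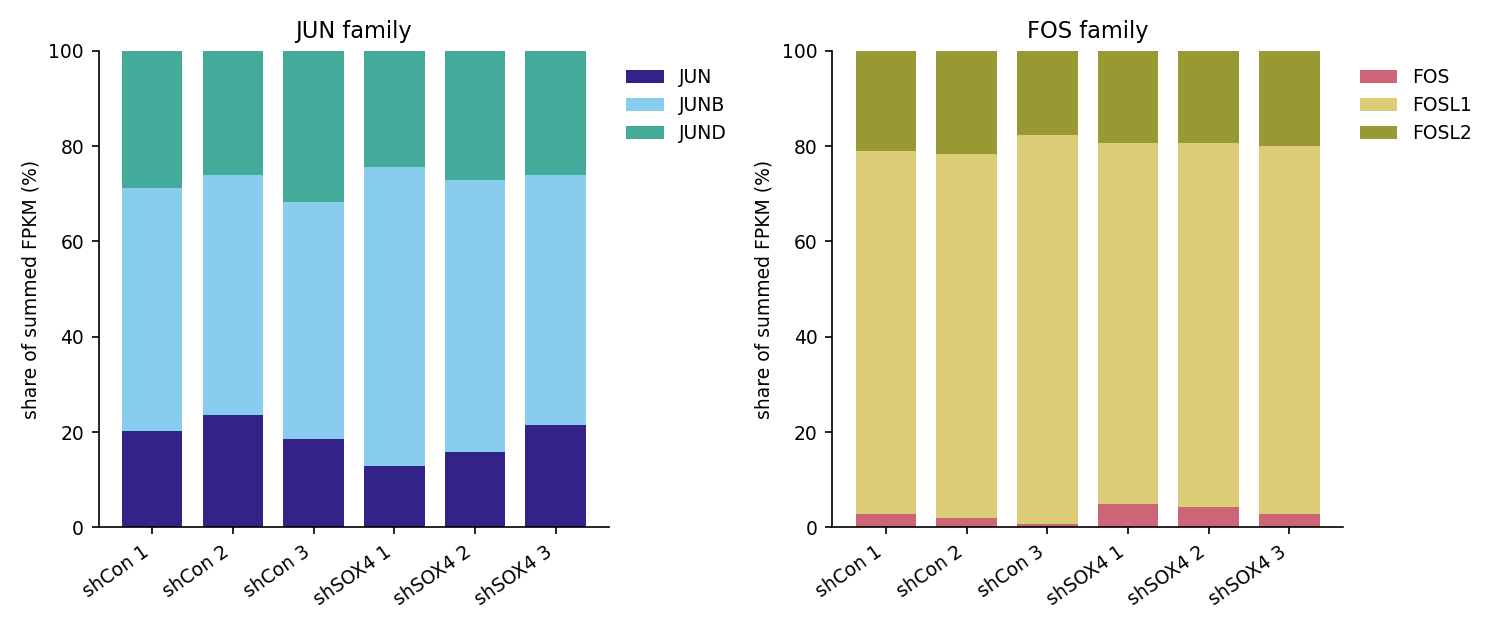
Share of each gene in the summed FPKM of its family (percent, stacked to 100) in each of the 6 libraries, JUN family on the left and FOS family on the right. JUNB widens in all 3 shSOX4 libraries, FOS stays a thin band of under 5%, and FOSL1 makes up over 75% of its family throughout.

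Genes whose levels followed JUN most closely over the 6 libraries were sought among 9634 protein-coding genes averaging 5 CPM or more, by the root mean square difference of centred log2 levels. The 4 nearest were SMAGP (0.0277), EHD4, an endocytic ATPase (0.0360), NCK2, an adaptor of receptor tyrosine kinases (0.0522), and PTTG1IP (0.0545), against a median of 0.452. The log2 fold changes of these 4 ran from -0.86 to -0.73, close to the -0.78 of JUN, so the likeness includes the difference between the groups. Of the other members FOSL2 was nearest to JUN (0.201, rank 659) and FOS farthest (0.941). FOSL1, IER3, JUND and IER2 lay between 0.224 and 0.282 (ranks 950 to 1885).

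Among AP-1 partners outside the 10, 10 of 14 listed genes had a row, of which 5 fell and 1 rose (background 15.8% and 17.0%; median log2 fold change -0.50). MAFG, a small MAF protein that pairs with CNC-family bZIP factors, was at 118 ± 10.5 CPM in shCon and 60.7 ± 3.16 CPM in shSOX4 (SD, n = 3 each; log2 fold change -0.96, adjusted p = 0.000598, edgeR). JDP2, a repressor that dimerises with JUN, went from 110 ± 13.5 to 55.2 ± 8.30 CPM (-1.0), and MAFF, another small MAF, from 34.3 ± 4.90 to 17.4 ± 2.5 CPM (-0.98). ATF3, a stress-induced JUN partner (-0.58), and BATF2 (-1.45) also fell, though BATF2 averaged 0.856 CPM in shSOX4 and passed the depositors' filter only through shCon. ATF2, the partner through which kinases act on the JUN promoter, rose from 4.07 ± 1.02 to 9.04 ± 1.63 CPM (1.14, adjusted p = 0.00388, edgeR). MAFK (-0.36), BATF3 (-0.37), CREB5 (-0.41) and ATF7 (0.19) did not pass. Leaving out shSOX4 2 or shSOX4 3 left 3 down, where 1098 and 1289 of all features were down, against 2136 with all libraries. MAFG, JDP2, MAFF and ATF2 were called in all 6 fits that left out a library. ATF3 was called only without shCon 3 or shSOX4 1 among these (adjusted p up to 0.137, without shSOX4 3), BATF2 lost its call without shSOX4 2 (0.0704) or shSOX4 3 (0.0831), and MAFK passed without shSOX4 1 (-0.54, adjusted p = 0.0384), all by edgeR.

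Other immediate-early genes went both ways. Of 42 with a row, 13 fell and 9 rose (31% and 21.4%, against 15.8% and 17.0% of all features), with a median of -0.19. Dual-specificity phosphatases, which switch off MAP kinases, were split: DUSP5 fell (-1.60, adjusted p = 7.24e-06, edgeR) and DUSP4 rose from 7.31 ± 1.34 to 18.5 ± 0.930 CPM (1.34, adjusted p = 0.00036, edgeR). PHLDA1 fell from 165 ± 13.4 to 93.4 ± 6.20 CPM (-0.82), and ID2, an inhibitor of helix-loop-helix factors, rose from 4.66 ± 1.15 to 11.1 ± 1.64 CPM (1.25). Leaving out shCon 1, shSOX4 2 or shSOX4 3 gave 7, 4 and 6 down, and 5 rose without shCon 2, shSOX4 2 or shSOX4 3. Of all features, 1678, 1098 and 1289 were down without shCon 1, shSOX4 2 and shSOX4 3, against 2136 with all libraries. Those up were 1797, 1411 and 1677 without shCon 2, shSOX4 2 and shSOX4 3, against 2295.

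Of 28 upstream kinases and serum response factors with a row, 6 fell and 4 rose (21.4% and 14.3%, against 15.8% and 17.0% of all features, median -0.19). Without shSOX4 2, 1 rose, where 1411 of all features were up, against 2295 with all libraries. MAPK3, which encodes ERK1, went from 203 ± 37.6 to 101 ± 19.6 CPM (-1.0, adjusted p = 0.00134, edgeR). Ribosomal S6 kinases downstream of ERK diverged, RPS6KA2 falling by 2.05 on the log2 scale and RPS6KA3 rising by 0.86. MAPKAPK2, the p38-dependent kinase that phosphorylates tristetraprolin, went from 243 ± 24.6 to 133 ± 9.0 CPM (-0.87, adjusted p = 0.00098, edgeR).

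Textbook AP-1 targets had 10 of 19 down and 4 up (52.6% and 21.1%, against 15.8% and 17.0% of all features), FOSL1 among those down. Their median was -0.44 while their mean was 0.09, since a few rises were large. IVL, a cornified envelope protein, went from 1.24 ± 0.0651 to 8.97 ± 1.29 CPM (2.85, adjusted p = 2.29e-06, edgeR), and the keratin gene KRT18 rose by 1.03. VEGFA, an angiogenic growth factor, fell by 1.01. Leaving out shSOX4 2 left 6 down, where 1098 of all features were down, against 2136 with all libraries. Known EGR1 targets and corepressors had 3 of 13 down and 3 up (23.1% each, against 15.8% and 17.0% of all features, median -0.32, mean 0.29), with GDF15, a stress-induced cytokine (2.42), up and ICAM1, a leukocyte adhesion molecule (-0.58), down. ICAM1 lost its call without shCon 1 (adjusted p = 0.0553), shSOX4 2 (0.0711) or shSOX4 3 (0.0797, edgeR). Leaving out any of these 3 libraries left 1 gene of the list down, and leaving out shCon 3 and shSOX4 1 together gave 5. Of all features, 1678, 1098 and 1289 were down without shCon 1, shSOX4 2 and shSOX4 3. With shCon 3 and shSOX4 1 both left out, 2642 were down.

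Among mRNAs known to be bound by ZFP36, 11 of 23 fell and 1 rose (47.8% and 4.35%, against 15.8% and 17.0% of all features). The median of the list was -0.60, and ZFP36 and IER3 themselves were among the 11. LIF, an interleukin-6 family cytokine, was at 95 ± 7.30 CPM in shCon and 46.9 ± 6.71 CPM in shSOX4 (SD, n = 3 each; log2 fold change -1.02, adjusted p = 0.000679, edgeR) and PIM1, a survival kinase, from 43 ± 5.85 to 22.9 ± 3.01 CPM (-0.91). BIRC3, an inhibitor of apoptosis, rose from 4.26 ± 1.05 to 14.0 ± 3.56 CPM (1.71). Leaving out shSOX4 2 or shSOX4 3 left 6 and 7 down, and 2 rose without shCon 1. Of all features, 1098 and 1289 were down without shSOX4 2 and shSOX4 3, against 2136 with all libraries. Without shCon 1, 1995 were up, against 2295. The list of mRNA decay partners, which holds decay enzymes together with regulators of ZFP36 and other AU-rich element binding proteins, had 2 of 21 genes down and 1 up (9.52% and 4.76%, below the 15.8% and 17.0% of all features, median 0.08). Those that fell were a regulator, MAPKAPK2, counted above, and another AU-rich element binding protein, KHSRP (-0.46, adjusted p = 0.0465, edgeR), and DCP2, the decapping enzyme, rose by 0.64 (adjusted p = 0.0443, edgeR). With a library left out, KHSRP was called only without shCon 1 and DCP2 only without shSOX4 1, with adjusted p up to 0.151 for KHSRP (edgeR, without shSOX4 2) and 0.222 for DCP2 (edgeR, also without shSOX4 2). EIF4E2, a cap-binding repressor, had 0.41 (adjusted p = 0.0548, edgeR). Without shSOX4 1, 4 of this list rose, 0 rose with any other library left out, and 1 fell without shCon 2, shSOX4 1, shSOX4 2 or shSOX4 3. Of all features, 2653 were up without shSOX4 1, and 1411 to 2074 with any other library left out. Those down were 1646, 2313, 1098 and 1289 without shCon 2, shSOX4 1, shSOX4 2 and shSOX4 3. VEGFA and some others stand in more than 1 list, so the lists are not independent.

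**Figure D5:**
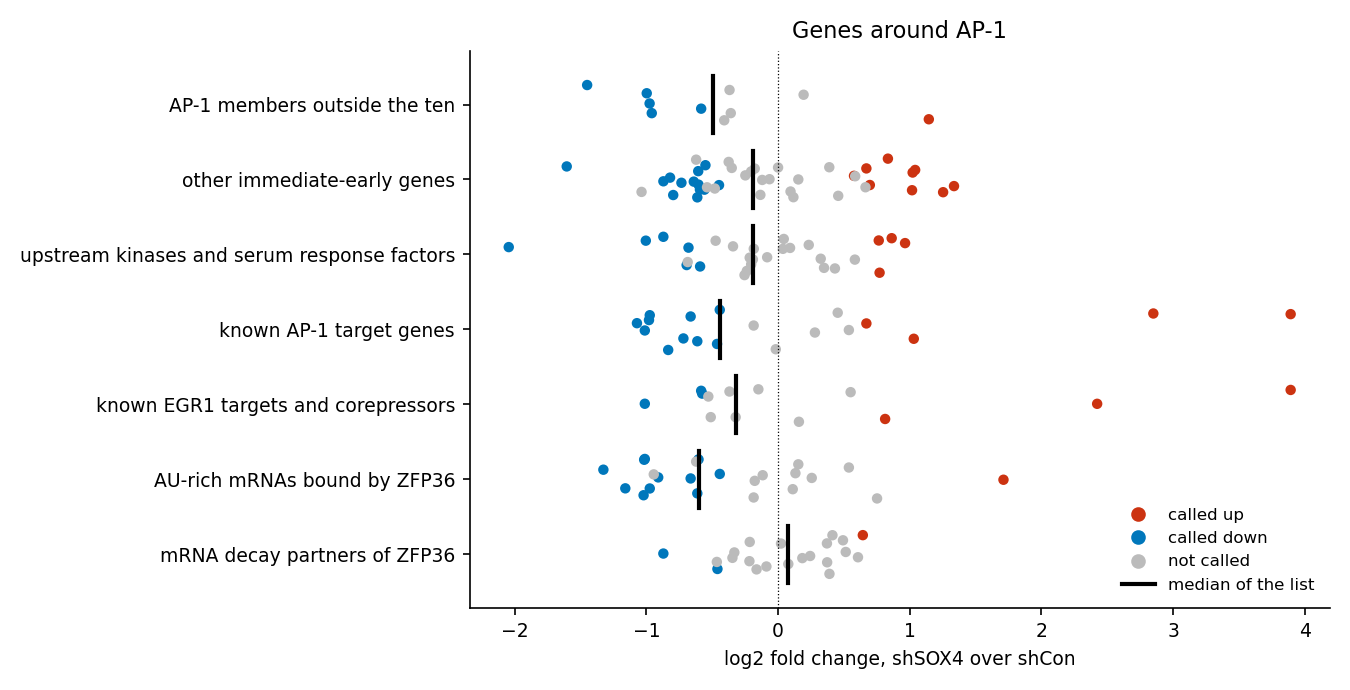
Log2 fold change (shSOX4 over shCon) of each listed gene with a row, 1 point per gene, red if called up, blue if called down and grey if not called, with a black bar at each list's median. Medians run from -0.60 for mRNAs bound by ZFP36 to 0.08 for its decay partners.

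Fold changes across the whole table varied with promoter GC content and gene length. With features split into 4 classes of promoter GC, those in the highest (72.7 to 94%) had a median log2 fold change of -0.12 with 19.5% called down, and those in the lowest (27.7 to 59.3%) a median of 0.14 with 12.0% down. JUND and ZFP36 were in the highest class, JUNB, FOSL2, EGR1 and IER2 in the next, and JUN and FOS in the one below that. By gene length as implied by count and FPKM, the class from 1.87 to 2.95 kb, which holds JUNB, JUND, FOS and ZFP36, had a median of -0.12, and the longest class, which holds FOSL2, 0.17. The part of these properties in the members' changes was not tested.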

How the data were processed

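RNA was measured in 6 poly-A selected libraries of DU145 cells, 3 shCon and 3 shSOX4. Per the file headers, the authors gave raw read counts for each gene, and FPKM values that adjust for gene length and depth. An adjusted p-value and a log2 fold change per gene were deposited with them. That adjusted p equalled the one computed here with DESeq2 to within 1% for 89.3% of features. Tools named without roles in the submitters' processing notes are Bowtie2, deepTools 2.07, HISAT2, MACS2 2.1.1 and STAR, with the build hg19. The labels describe 2 RNA library kits without saying which library used which, so a difference in kit cannot be told apart from other differences between libraries. The counter, its strand setting and the annotation: not given in the sources used here. Columns marked NC and SH were read as shCon and shSOX4. Every feature had at least 1 CPM in at least 3 libraries, so lower genes had been removed.

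Counts were fitted over all 13527 features with edgeR 4.0.16 in R 4.3.3 (TMM, filterByExpr, quasi-likelihood F test, two-sided, group only), calling an adjusted p (Benjamini-Hochberg) under 0.05. Levels are TMM-scaled CPM, and log2 levels for spread and likeness add 0.5 CPM. Libraries of a group differed far beyond sampling noise (chi-square per degree of freedom 28.8 to 139), and p-values rest on the variation among these libraries, possibly technical. Alternatives used RLE or total-count scaling, other filters, DESeq2 1.42.0, limma 3.58.1 (voom, or log2(FPKM + 1) for a mean FPKM of at least 1), a replicate block, a test against a 1.5-fold change, robust dispersions, and left-out libraries or newGene loci (1116 unnamed features). The fits were tested on simulated data.

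The members and the 7 lists were chosen with earlier results of these data known. Named are the 10 members, SOX4, up to 4 genes per list with the smallest adjusted p, all AP-1 partners with a row, and the 4 genes nearest JUN. HOOK2 and the antisense genes were named afterwards for their overlap with members. Promoter sequences are RefSeq's for GRCh38.p14, and GC content was available for 9984 features. Protein sequences were not used here, and some listed genes and markers are not reported here.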

Additional observations from a re-analysis of the deposited data

How the results depend on the processing

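The direction of all 10 genes and of SOX4 was the same in each of 18 alternatives, and 147 of the members' 180 values kept their side of the threshold. JUN, IER3 and ZFP36 were called in all of these except that JUN did not pass against a 1.5-fold change (-0.78), where JUND (-0.62), FOSL1 (-0.46), FOSL2 (-0.43) and SOX4 (-0.89) did not pass either; that test left 1195 features, 2 members (both down), and 6 listed genes down and 7 up. With RLE scaling FOSL1 (-0.46) and FOSL2 (-0.43) did not pass, with limma-voom FOSL1 (-0.45) did not, and with limma on log2(FPKM + 1) FOSL1 (-0.41) and FOSL2 (-0.40) did not. Without both shCon 3 and shSOX4 1, JUNB (-0.39), EGR1 (-0.84) and IER2 (-0.39) passed. The cause of these shifts was not tested. Of the 18 alternatives, dropping the filter changed no value, since the filter removed no feature. The 1.5-fold test and robust dispersions keep the main fold changes, so they could not alter a direction.

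With the replicate number as a block (replicate block), 3374 features were called, 3 members fell and 1 rose: JUND (-0.60), FOSL1 (-0.45) and FOSL2 (-0.43) no longer passed and FOS (0.88) did. Deviations from the group means of same-numbered libraries correlated at -0.29, 0.16 and -0.29, and no library correlated best with its own number. These values show no pairing by number, but with 3 libraries a group they cannot exclude it.

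Leaving out each library in turn gave 2509 to 4966 features called (2509 without shSOX4 2), with 1098 to 2313 down and 1411 to 2653 up. Of the members, 3 to 5 were called, 3 to 5 down and 0 to 1 up. Over all lists, 38 of 137 genes outside the 10 were down and 21 up with all libraries, against 15.8% and 17.0% of all features. With a library left out, 19 to 39 of the listed genes were down and 12 to 25 up, the lowest of both without shSOX4 2. Log2 fold changes ranged from -0.79 to -0.43 for JUND, -0.47 to -0.05 for JUNB, -0.69 to -0.07 for EGR1, 0.42 to 1.25 for FOS, -0.59 to -0.32 for FOSL1, -0.51 to -0.38 for FOSL2, -0.52 to -0.26 for IER2 and -1.02 to -0.71 for SOX4. The share of FOSL1 in its family, shSOX4 minus shCon, ranged from -2.5 to 0.0984 points and was 0.395 without both shCon 3 and shSOX4 1, and that of FOSL2 from -1.75 to 0.185 points. In the same terms JUNB ranged from 4.62 to 9.68 points, JUN from -6.51 to -2.25, JUND from -4.5 to -1.64 and FOS from 1.65 to 2.77. Shares made from CPM in place of FPKM kept their direction. FOS had 56 to 262 counts per library.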
